A study of Homo sapiens with 15 samples.

Results

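The SLC25 genes encode the mitochondrial solute carriers. The members described here are the genes whose symbol is SLC25A followed by a number and that have a probe on the array, a probe being assigned to a gene through the RefSeq accession printed beside it in the scanner output. They came to 46 of the 19483 genes with an assigned probe. The reference used for gene names holds 48 such symbols, and SLC25A14 and SLC25A52 were not analysed here.

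The study asked which transcripts differ when a cDNA for cytoglobin, a haem protein of the globin family, is introduced into a carcinoma cell line. The cells were PE/CA-PJ41, an established line from a human oral squamous cell carcinoma. The CYGB+ group carried the pCMV6-Neo plasmid with the human cytoglobin cDNA, and the control group, named NCE, carried an empty vector according to the labels. The study's text elsewhere calls NCE untransfected, so whether the comparison controls for the vector and its selection is not settled. Each group had 3 biological replicates, hybridised to 9 arrays for NCE and 6 for CYGB+, so that each replicate had 3 or 2 array repeats. The labels put all 15 samples on the Cy3 dye, read in the green channel, and the values below are green signals. The study's methods instead put the control on Cy5 and the cytoglobin cells on Cy3, so that what the green channel of an NCE array holds rests on the labels. In the labels, RNA was extracted on 3 separate occasions after a day in supplemented medium. The model has limits of its own: the insert is driven by a viral promoter, the cytoglobin cells were a single stable clone in the study's methods, picked under G418, and a difference between cell clones cannot be told apart from an effect of the insert.

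Carriers of this family sit almost all in the inner mitochondrial membrane, where each moves a set of metabolites, nucleotides, cofactors or ions that the lipid bilayer does not let through. They supply the matrix with ADP, phosphate and respiratory substrates, return ATP and citrate to the cytosol, and run the malate-aspartate shuttle that brings reducing equivalents into the matrix. In carcinoma cells they are known for linking glutamine use, proline and nucleotide synthesis and the redox state of the matrix to the rest of metabolism.

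Cytoglobin itself came first, as a check on the labels. The single CYGB probe read 12.85, 13.16 and 12.96 in the 3 NCE replicates and 12.37, 13.42 and 13.01 in the 3 CYGB+ replicates, as log2 signal after quantile normalization. The groups overlapped, and replicates from each group were among the higher and the lower values. The difference of CYGB+ minus NCE was -0.05, with a 95% confidence interval from -0.67 to 0.56 and an adjusted p of 0.915. It was 0.23 without CYGB+ replicate 1 and -0.30 without CYGB+ replicate 2. The probe therefore did not separate the groups, and CYGB+ below means the samples labelled CYGB+. It was well above background on all 9 NCE and all 6 CYGB+ arrays, while the study describes the parent line as not expressing cytoglobin. The reason for its signal in NCE was not tested. The sequence of the probe was not used here, so whether it lies within the transfected cDNA was not tested.

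The carcinoma label was checked against epithelial markers. All 9 squamous epithelial markers, among them KRT5, KRT14, TP63 and SFN, were well above background, with the brightest probe that of SFN, though brightness of different probes does not measure their relative abundance. None passed the limma test, and the methods' t-test called 0, beside 11.6% and 4.17% of all probes. At an unadjusted p under 0.05 there were 1 upward and 3 downward, beside 14.6% and 14.4% of all probes. Their summed signal on the linear scale was 153700, 169500 and 160900 in NCE and 143600, 183900 and 147800 in CYGB+. Of 8 markers of fibroblasts, leukocytes and endothelium, COL3A1, PDGFRB and VWF were well above background on 0 of 15 arrays, PECAM1 on 1 and PTPRC on 5. Of the 3 that were measured, the brightest probe was that of CD68, and COL1A2 was lower in CYGB+ by 5.79-fold (log2 difference -2.53, adjusted p 0.00107). CD68 and COL1A1 differed by 0.25 and 0.23, with overlapping groups and adjusted p of 0.406 and 0.725. COL1A1 entered through the CYGB+ arrays alone, being well above background on 7 of 9 NCE and 6 of 6 CYGB+ arrays. Its higher signal in CYGB+ is therefore partly set by how it entered. The summed signal of the 3 measured markers was 1339, 1091 and 1158 in NCE and 963, 1259 and 983 in CYGB+. What part COL1A2 or the cells it marks has in the values of the carriers was not tested.

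Of the 46 SLC25 genes, 35 had a probe well above background on every array of at least 1 group, and the brightest such probe stands for the gene. The signal was above background on all 15 arrays for 33 of the 35. SLC25A28 lost its spot on 1 NCE array as an outlier and was above background on the remaining 14. SLC25A34 passed through the NCE arrays alone, being well above background on 9 of 9 NCE and 5 of 6 CYGB+ arrays, so its lower signal in CYGB+ is partly set by how it entered. The 11 genes that did not enter were not tested in the main comparison, and no difference is given for them. SLC25A2, SLC25A18, SLC25A31, SLC25A41, SLC25A48 and SLC25A53 were well above background on 0 of 15 arrays. SLC25A26 and SLC25A35 were above it on 2 arrays each, SLC25A47 on 9, and SLC25A27 and SLC25A45, with 2 probes each, on 4 and 11 for the probe that reached it most often. SLC25A31 is the testis form of the ADP/ATP carrier and SLC25A47 is known from liver.

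Most carriers had small differences. Over the 35 genes the log2 difference of CYGB+ minus NCE ran from -1.16 to 0.87 with a median of 0.06, beside a median of 0.00 over the 19790 probes tested. The median size of the difference, sign aside, was 0.19 for the carriers and 0.30 for all probes. The carriers count only the brightest probe of a gene, while all probes include further probes of a gene and probes without a symbol. These medians are therefore not like for like. At an adjusted p under 0.05, 1 carrier was higher in CYGB+ and 1 was lower, with 33 passing in neither direction. Those 2 of 35 make 5.71%, beside 11.6% of all probes in either direction, 6.25% upward and 5.38% downward. In this fit the family's share of calls was below that of the array, and the difference between the shares was not tested. In other fits the order of the shares turned, as with the slide as a term, where 2 of the 35 carriers and 3.62% of all probes passed. With the replicate number as a block, 17.6% of all probes passed, and among the carriers 1 was higher and 3 were lower, SLC25A34 among them, which had entered through the NCE arrays alone.

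A looser view counts genes whose replicates do not overlap between groups. In 6 carriers all 3 CYGB+ replicates lay above all 3 NCE replicates, beside 17.8% of all probes, and in 5 they lay below, beside 17% of all probes. The higher set was SLC25A46, SLC25A32, SLC25A11, SLC25A28, SLC25A6 and SLC25A44, and the lower set was SLC25A22, SLC25A34, SLC25A37, SLC25A12 and SLC25A4, named after their values were seen. SLC25A34 had entered through the NCE arrays alone, and the higher and lower sets together make 31.4% of the 35 genes. By sign alone, 20 carriers had a positive difference and 15 a negative one, and 3 upward and 5 downward had an unadjusted p under 0.05, beside 14.6% and 14.4% of all probes. Those 8 make 22.9% of the carriers, beside 29% of all probes.

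**Figure D1:**
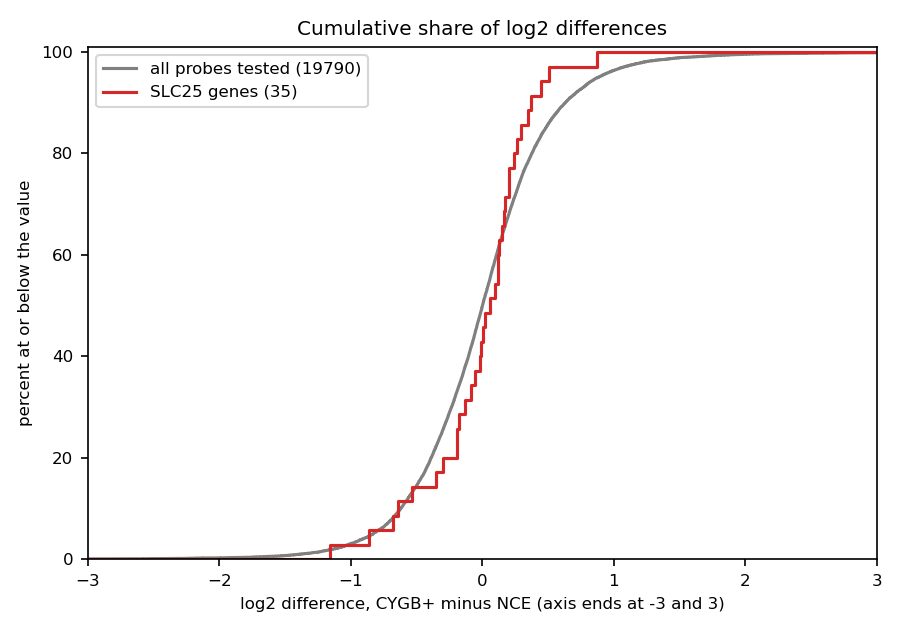
Cumulative share, in percent, of the log2 differences of CYGB+ minus NCE for the 19790 probes tested (grey) and the 35 SLC25 genes (red). The carriers' curve is steeper around 0, with a median size of 0.19 beside 0.30 for all probes, and its ends are at -1.16 and 0.87. The red curve holds only the brightest probe of a gene and the grey curve every probe tested.

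The carrier that was higher in CYGB+ was SLC25A46, an unusual member that sits in the outer membrane and takes part in mitochondrial fission, fusion and cristae upkeep and for which no transported solute is assigned. Its log2 signal was 8.70, 8.83 and 8.73 in the NCE replicates and 9.46, 9.69 and 9.72 in the CYGB+ replicates. All 3 CYGB+ replicates were above all 3 NCE replicates, with a gap between the groups wider than the spread within either. The signal was 1.83-fold higher in CYGB+, a log2 difference of 0.87 (SE 0.15, 95% confidence interval 0.52 to 1.22, adjusted p 0.0124). On single arrays, the 9 NCE values ran from 8.63 to 8.92 with a median of 8.74, and the 6 CYGB+ values from 9.17 to 9.75 with a median of 9.70. A second SLC25A46 probe gave 0.88 with an adjusted p of 0.0115.

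The carrier that was lower in CYGB+ was SLC25A22, which brings glutamate with a proton into the matrix. Its log2 signal was 12.41, 12.34 and 12.23 in the NCE replicates and 11.26, 11.59 and 11.53 in the CYGB+ replicates. Every CYGB+ replicate was below every NCE replicate. The signal was 1.82-fold lower in CYGB+, a log2 difference of -0.87 (SE 0.16, 95% confidence interval -1.23 to -0.50, adjusted p 0.0152). On single arrays the 9 NCE values ran from 12.17 to 12.45 with a median of 12.31, and the 6 CYGB+ values from 10.94 to 11.71 with a median of 11.59.

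The arrays lay on 2 slides, and the slides were nearly aligned with the groups: slide 1 held 8 NCE arrays, and slide 2 held all 6 CYGB+ arrays and 1 array of NCE replicate 1. With the slide as a term over the 15 arrays, in a fit that keeps the repeats of a replicate together as a random block and takes the slide effect from that 1 NCE array, the difference was 0.93 for SLC25A46 (adjusted p 0.0206) and -0.96 for SLC25A22 (adjusted p 0.0344). On slide 2 alone the differences were as large, 0.95 and -0.99, with adjusted p of 0.321 and 0.308 in a fit that has a single NCE sample. On that slide the lone NCE array read 8.67 for SLC25A46, below all 6 CYGB+ arrays, and 12.45 for SLC25A22, above all 6. With NCE replicate 2 or 3 left out, SLC25A46 had adjusted p of 0.0545 and 0.061, and with NCE replicate 1, 2 or 3 left out SLC25A22 had 0.056, 0.0736 and 0.0543. The sizes moved little, and over 21 alternatives SLC25A46 ran from 0.82 to 0.99 and SLC25A22 from -0.99 to -0.75.

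**Figure D2:**
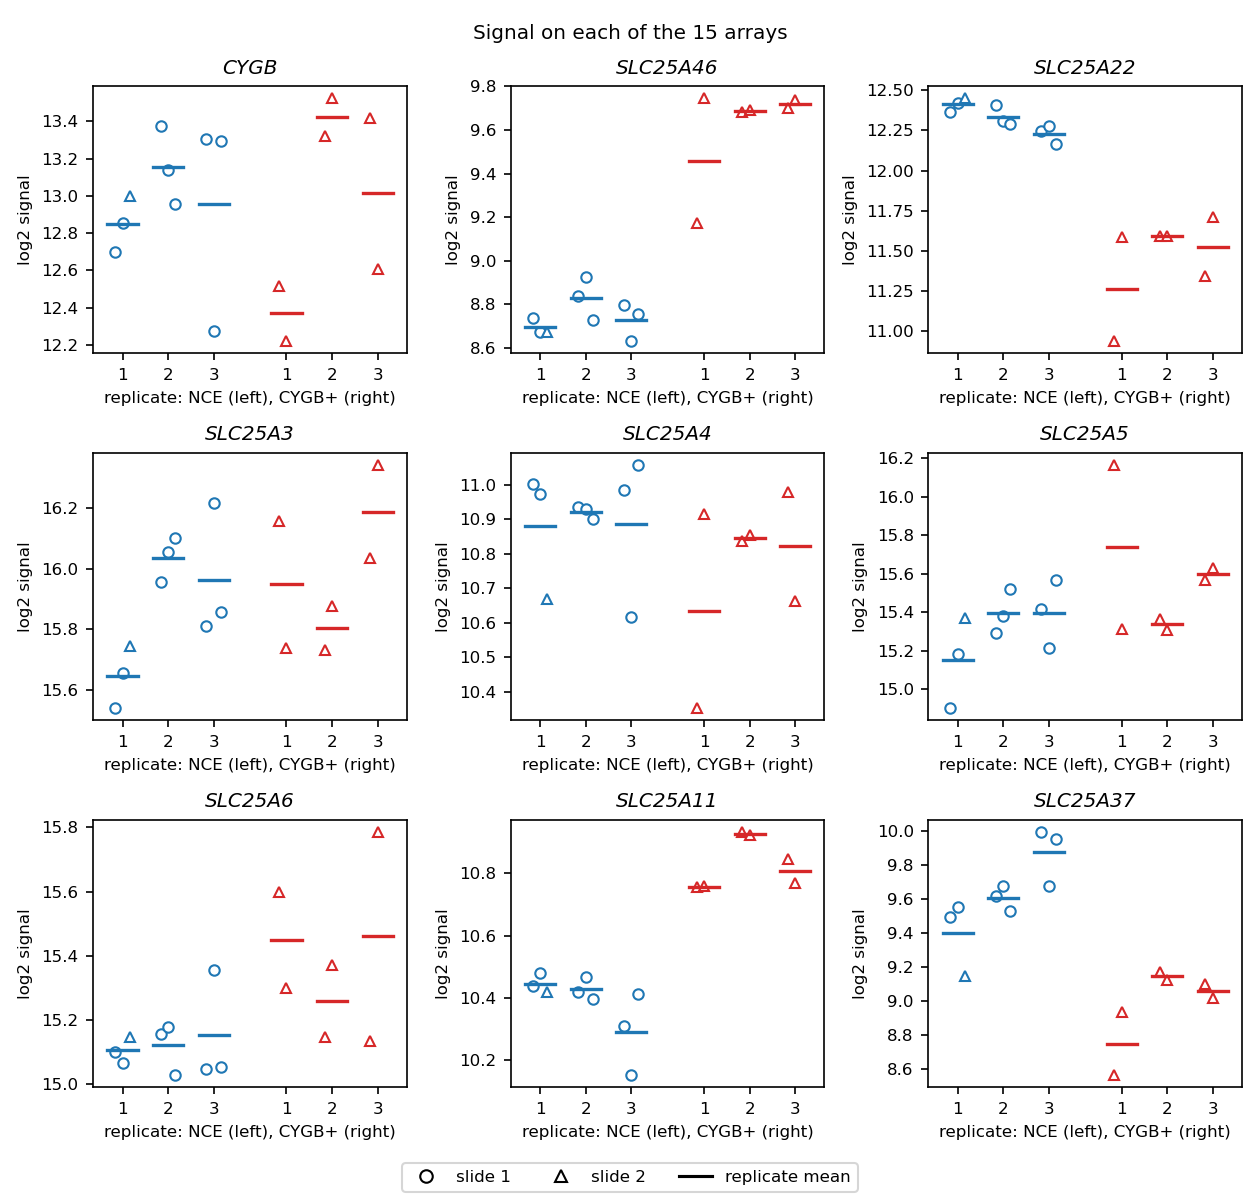
Log2 signal of CYGB, SLC25A46, SLC25A22, the ADP/ATP and phosphate carriers, SLC25A11 and SLC25A37 on each of the 15 arrays, by replicate, with NCE in blue and CYGB+ in red, circles for slide 1 and triangles for slide 2, and a line at each replicate's mean. SLC25A46 is higher on all 6 CYGB+ arrays (9.17 to 9.75) than on the 9 NCE arrays (8.63 to 8.92), SLC25A22 is lower (10.94 to 11.71 against 12.17 to 12.45), and CYGB overlaps.

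The stretch of DNA before the transcription start of these 2 genes is shown because they are the carriers that passed the test, in opposite directions. The sequences are the 250 bases before the start on the gene's own strand, from RefSeq's promoter table on GRCh38.p14. SLC25A46 has a single start in that table (chr5:110738757-110739006, plus strand), and for SLC25A22, which has 4, the most upstream is shown (chr11:798282-798531, minus strand). Capitals mark matches, on either strand, to 4 short words chosen after the values were seen: CCGGAAGT (ETS factors), GCATGCGC (NRF1), CACGTG (the E-box) and TGACGTCA (the CRE). The E-box and CRE words share the letters ACGT.
SLC25A46: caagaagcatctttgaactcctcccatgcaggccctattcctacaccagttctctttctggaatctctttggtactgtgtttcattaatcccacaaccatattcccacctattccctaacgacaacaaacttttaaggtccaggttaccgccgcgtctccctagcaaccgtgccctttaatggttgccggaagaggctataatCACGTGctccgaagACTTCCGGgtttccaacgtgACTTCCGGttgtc
SLC25A22: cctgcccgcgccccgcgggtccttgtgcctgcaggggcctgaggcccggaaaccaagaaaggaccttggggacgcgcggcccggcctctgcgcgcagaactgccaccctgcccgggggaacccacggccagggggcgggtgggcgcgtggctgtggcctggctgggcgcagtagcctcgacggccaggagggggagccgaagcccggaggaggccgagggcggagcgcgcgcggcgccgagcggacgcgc

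The SLC25A46 stretch held 2 matches to the ETS word, on the reverse strand, and 1 to the E-box, all near its 3′ end, and 48.8% of its bases were G or C. The SLC25A22 stretch held 0 matches to any of the 4 words and was 78% G or C. The promoter table listed 40 SLC25A genes with 50 distinct stretches, whose median was 65.4% G or C, beside 58% over all 35093 stretches. The E-box word was in 8 of the 50 (16%), beside 6.34% of all stretches, in SLC25A13, SLC25A26, SLC25A31, SLC25A33, SLC25A36, SLC25A38, SLC25A46 and SLC25A51. The ETS word was in 4 (8%), beside 3.43%, the CRE word in 3 (6%), beside 1.65%, and the NRF1 word in 0, beside 2.63%. The genes with an ETS word were SLC25A17, SLC25A24, SLC25A26 and SLC25A46, and SLC25A26 had no test of signal because it was not above background often enough. A match is a description of letters, and no binding was measured.

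The ADP/ATP and phosphate carriers supply ATP synthase with its substrates and export its product, and 4 of the 5 were measured. None passed the limma test, 0 had an unadjusted p under 0.05, and the methods' t-test called 0. The shares of all probes were 11.6%, 29% and 4.17% in that order. The 4 differences ran from -0.13 to 0.26 with a median of 0.17. SLC25A5, the form of the ADP/ATP carrier made in dividing cells, read 15.15, 15.40 and 15.40 in NCE and 15.74, 15.34 and 15.60 in CYGB+. SLC25A6, the broadly expressed form, read 15.10, 15.12 and 15.15 in NCE and 15.45, 15.26 and 15.46 in CYGB+. The SLC25A5 groups overlapped, while all 3 CYGB+ values of SLC25A6 were above the NCE values. Their differences were 0.24 (95% confidence interval -0.15 to 0.64) and 0.26 (-0.07 to 0.60), and a second SLC25A6 probe gave 0.20. SLC25A5 read 16.16 on array 1 of CYGB+ replicate 1 against 15.63 on the next highest CYGB+ array, and its difference was 0.10 without that array and 0.09 with the slide as a term. With each array scaled to its 75th percentile, SLC25A5 and SLC25A6 differed by 0.51 and 0.52. Both passed in 0 of 21 alternatives.

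SLC25A4, the ADP/ATP carrier of heart and muscle, read 10.88, 10.92 and 10.89 in NCE and 10.63, 10.85 and 10.82 in CYGB+. All 3 CYGB+ values were below the NCE values, yet the difference of -0.13 (adjusted p 0.591) turned to 0.12 with the slide as a term and to 0.10 on slide 2 alone. SLC25A3, the phosphate carrier, read 15.65, 16.04 and 15.96 in NCE and 15.95, 15.80 and 16.19 in CYGB+, with overlapping groups. Its difference was 0.10, or 0.24 on slide 2 and 0.03 without array 1 of CYGB+ replicate 1. It was 0.37 with each array scaled to its 75th percentile and -0.02 without NCE replicate 1. The interval of SLC25A3, from -0.32 to 0.51, takes in a fall and a rise, as do those of the other 3. What size of change 3 replicates a group could detect was not tested.

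The calcium-regulated ATP-Mg/phosphate carriers set the pool of adenine nucleotides in the matrix, and 3 of the 4 were measured. None passed the limma test, beside 11.6% of all probes, and 0 had an unadjusted p under 0.05, beside 29%. The methods' t-test called 0, beside 4.17% of all probes. SLC25A24 had the widest difference, at -0.54 (adjusted p 0.207), and read 12.14, 12.36 and 12.01 in NCE and 11.08, 11.79 and 12.02 in CYGB+. CYGB+ replicate 3 lay within the NCE values, so the groups overlapped. On array 1 of CYGB+ replicate 1 it read 10.40, and without that array the difference was -0.31. SLC25A23 and SLC25A25 differed by 0.12 and -0.02 on all arrays but by -0.20 and -0.47 on slide 2 alone, and by -0.02 and -0.50 with the slide as a term.

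The aspartate and glutamate carriers feed the malate-aspartate shuttle and glutamate breakdown, and the 3 that were measured all had negative differences, with a median of -0.35. SLC25A22 passed the test and is described above. It was 1 of 3 called by limma, beside 5.38% of all probes downward, and the methods' t-test called it too, beside 4.17%. At an unadjusted p under 0.05 there were 2, both downward, beside 14.4% of all probes. In 2 all CYGB+ replicates lay below all NCE replicates, beside 17% of all probes. SLC25A12, the calcium-regulated aspartate/glutamate exchanger also called aralar, read 10.60, 10.83 and 10.78 in NCE and 10.48, 10.28 and 10.40 in CYGB+. All 3 CYGB+ replicates were below the NCE replicates, and the difference was -0.35 with an adjusted p of 0.169, or -0.18 on slide 2 alone. Without array 1 of CYGB+ replicate 1 it was -0.45 with an adjusted p of 0.0441, and it passed in 3 of 21 alternatives. SLC25A13, called citrin, the liver-type form of the same exchanger, differed by -0.18, with overlapping groups, and by -0.03 on slide 2.

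Among the di- and tricarboxylate carriers, all 4 were measured and their median difference was 0.06. None passed the limma test, beside 11.6% of all probes, and 0 passed the methods' t-test, beside 4.17%. At an unadjusted p under 0.05 there was 1, upward, beside 14.6% of all probes. That 1 was SLC25A11, the oxoglutarate/malate exchanger that is the other carrier of the malate-aspartate shuttle. It read 10.45, 10.43 and 10.29 in NCE and 10.76, 10.93 and 10.81 in CYGB+, so all 3 CYGB+ replicates were higher. The 6 CYGB+ arrays ran from 10.76 to 10.93 and the 9 NCE arrays from 10.15 to 10.48. Its difference of 0.44 (SE 0.14, 95% confidence interval 0.11 to 0.78) had an adjusted p of 0.0887, and it was 0.44 with the slide as a term and 0.41 on slide 2. In 7 of 21 alternatives it passed the threshold. SLC25A1, which exports citrate for lipid synthesis, differed by -0.19 on all arrays but by 0.10 without array 1 of CYGB+ replicate 1, where it read 9.19. SLC25A10, which exchanges malate or succinate for phosphate, differed by 0.20, or 0.35 without that array and 0.03 without CYGB+ replicate 2. SLC25A21, which moves oxoadipate, differed by -0.09, or -0.22 with the slide as a term and 0.05 without NCE replicate 2.

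The nucleotide and cofactor carriers were the largest group, with 8 measured genes and a median of 0.17. None passed the limma test, beside 11.6% of all probes, and 0 passed the methods' t-test, beside 4.17%. An unadjusted p under 0.05 was found for 1, upward, beside 14.6% of all probes. SLC25A32, which brings folate and FAD into mitochondria, read 10.89, 11.05 and 11.02 in NCE and 11.71, 11.17 and 11.61 in CYGB+. Its replicates did not overlap, and the difference was 0.51 with an adjusted p of 0.115, and 0.29 without array 1 of CYGB+ replicate 1. SLC25A33, a pyrimidine nucleotide carrier, differed by 0.15 with overlapping groups, or 0.07 with the slide as a term. SLC25A51, the NAD carrier, has 2 probes that differed in sign, at 0.30 for the brighter and -0.54 for the other. SLC25A36, another pyrimidine nucleotide carrier, was at 0.01 on its brighter probe and -0.17 on the other, and the brighter was at -0.35 on slide 2 and -0.40 with the slide as a term.

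Among carriers of amino acids, methyl donors and glutathione, 6 of 8 were measured, with a median of 0.04, and none passed the limma test. The methods' t-test called 0, and the shares of all probes were 11.6% by limma and 4.17% by that t-test. At an unadjusted p under 0.05 there was 1, downward, beside 14.4% of all probes. It was SLC25A40, a glutathione carrier, which read 7.14, 7.50 and 7.50 in NCE and 6.54, 6.39 and 7.17 in CYGB+. CYGB+ replicate 3 reached into the NCE values, and the difference was -0.68 with an adjusted p of 0.102. Over 21 alternatives the difference ran from -0.91 to -0.34, and it passed in 4 of them. SLC25A39, the other glutathione carrier, differed by 0.12, or 0.30 without array 1 of CYGB+ replicate 1. SLC25A44, which carries branched-chain amino acids, was higher in all 3 CYGB+ replicates by a small margin, with a difference of 0.20, or 0.08 with the slide as a term. SLC25A38, a glycine carrier used in haem synthesis, SLC25A29, a carrier of basic amino acids, and SLC25A15, the ornithine carrier, were at 0.06, 0.02 and -0.01. With the slide as a term they were at 0.12, -0.06 and -0.30, and on slide 2 at 0.24, 0.10 and -0.26.

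The mitoferrins bring iron into the matrix for haem and iron-sulfur clusters, and the 2 had opposite signs. SLC25A37, the form of the erythroid lineage, read 9.40, 9.61 and 9.87 in NCE and 8.75, 9.15 and 9.06 in CYGB+, with no overlap. The difference was -0.64 (95% confidence interval -1.08 to -0.21, adjusted p 0.0658, or 0.0376 with the replicate number as a block). The NCE array on slide 2 read 9.15, inside the 8.57 to 9.17 of the CYGB+ arrays beside it, and the difference was -0.16 on that slide and -0.22 with the slide as a term. SLC25A28, the form of other cells, read 9.38, 9.26 and 9.27 in NCE and 9.50, 9.97 and 9.56 in CYGB+, again without overlap, with a difference of 0.37 and an adjusted p of 0.201. The limma test and the methods' t-test called 0 of the 2, beside 11.6% and 4.17% of all probes. With an unadjusted p under 0.05 there was 1, downward, beside 14.4% of all probes.

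Single members of other roles followed. SLC25A20, which exchanges acylcarnitine for carnitine and admits fatty acids for oxidation, differed by -0.06 on all arrays, by 0.27 on slide 2 and by -0.21 without array 1 of CYGB+ replicate 1. SLC25A30, an uncoupling-protein-like member, differed by -0.30 (adjusted p 0.327) on all arrays, by -0.64 with the slide as a term, by -0.70 on slide 2 and by -0.47 without array 1 of CYGB+ replicate 1. SLC25A43, of unassigned role, differed by 0.12 on all arrays but by -0.11 with the slide as a term. SLC25A34, whose substrate is not settled, read 6.36, 6.34 and 6.21 in NCE and 5.90, 4.42 and 5.09 in CYGB+. All 3 CYGB+ values were below the NCE values, with an SD of 0.74 among them against 0.08 in NCE. Single arrays overlapped, at 5.72 to 7.21 in NCE and 3.74 to 6.20 in CYGB+. The difference of -1.16 had an adjusted p of 0.0637 by limma, or 0.028 with the replicate number as a block. The gene entered through the NCE arrays alone, so its lower signal is partly set by how it entered, and neither p-value is taken as support. Over 19 alternatives the difference ran from -1.54 to -0.23, the smallest with normexp applied to the median spot signals in place of the processed ones.

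**Figure D3:**
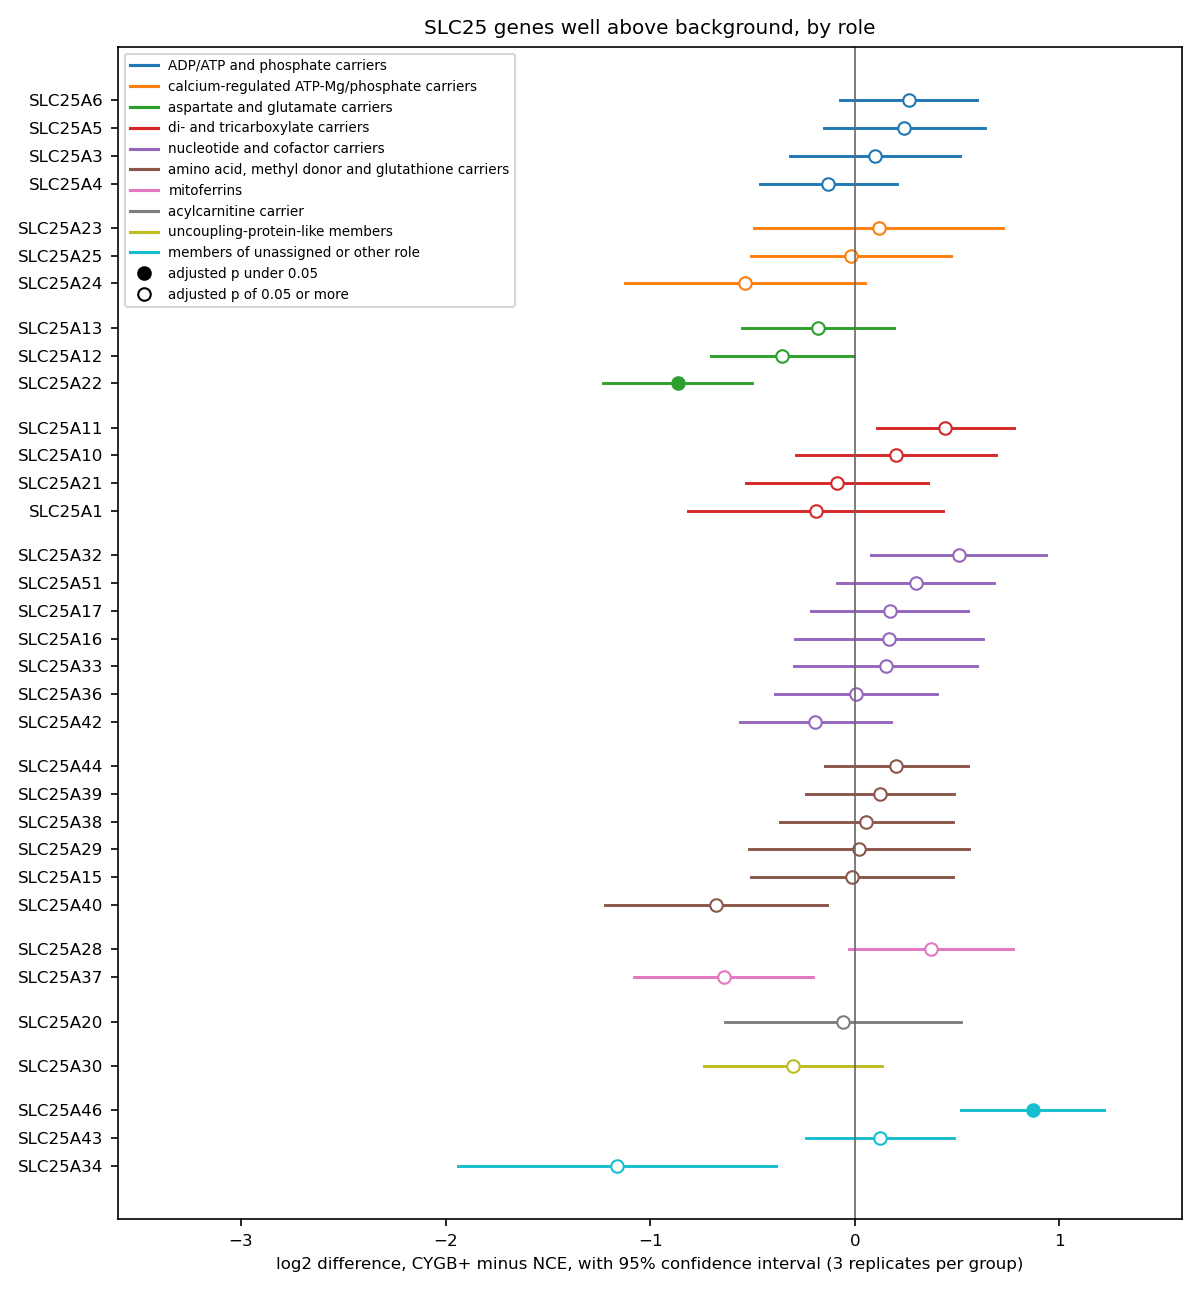
Log2 difference of CYGB+ minus NCE for 34 of the 35 SLC25 genes above background, grouped by role, with the 95% confidence interval from limma over 3 replicates per group. Filled points mark adjusted p under 0.05: SLC25A46 at 0.87 and SLC25A22 at -0.87. Most other intervals span 0.

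Genes that work beside the carriers were counted in the same way. Of 3 measured family members under other symbols, MTCH1 (0.08), MTCH2 (0.43) and UCP3 (-0.60), none passed the limma test, 0 had an unadjusted p under 0.05, and the methods' t-test called 0. The shares of all probes were 11.6%, 29% and 4.17% in that order. UCP1 was well above background on 0 arrays and UCP2 on 13. Of 21 genes of mitochondrial transport outside the family, SMDT1 was not above background and 0 of the other 20 passed, beside 11.6% of all probes. At an unadjusted p under 0.05 there were 2 upward and 6 downward, beside 14.6% and 14.4% of all probes. The methods' t-test called 1 of them, ABCB6, at an adjusted p of 0.0325, against 0.112 by limma, beside 4.17% of all probes called by that t-test. VDAC1, the outer membrane pore, was at 0.55 and MPC1, a subunit of the pyruvate carrier, at 0.52, with adjusted p of 0.0661 and 0.0666. Downward at an unadjusted p under 0.05 were SFXN5 (-0.60), SFXN2 (-0.58), MCU (-0.50), SLC8B1 (-0.44), VDAC3 (-0.43) and ABCB6 (-0.39), with adjusted p from 0.0733 for SFXN2 to 0.154 for SLC8B1. These 8 genes were named after their values were seen. Of 10 shuttle enzymes that use carrier substrates, such as GOT1, GOT2, MDH1 and MDH2, 0 passed, 0 had an unadjusted p under 0.05 and the methods' t-test called 0. These counts again stand beside 11.6%, 29% and 4.17% of all probes.

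Across the family, the sign of the difference was the same for 28 of 35 genes with the slide as a term and for 30 of 35 on slide 2. The family's median was 0.06 on all arrays, beside 0.00 over all probes. It was 0.10 with each array scaled to its 75th percentile, beside 0.05 over all probes. With the slide term both medians were -0.01, so no direction is given for the family. The number of arrays, with 3 replicates a group, limits the precision of every value above. Array 1 of CYGB+ replicate 1 stood apart, with a median correlation of 0.901 with the other arrays against 0.955 to 0.978 for the rest. Without that array the test called 2 carriers higher and 4 lower, among 20.2% of all probes. SLC25A34, which had entered through the NCE arrays alone, was among the 4 lower.

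**Figure D4:**
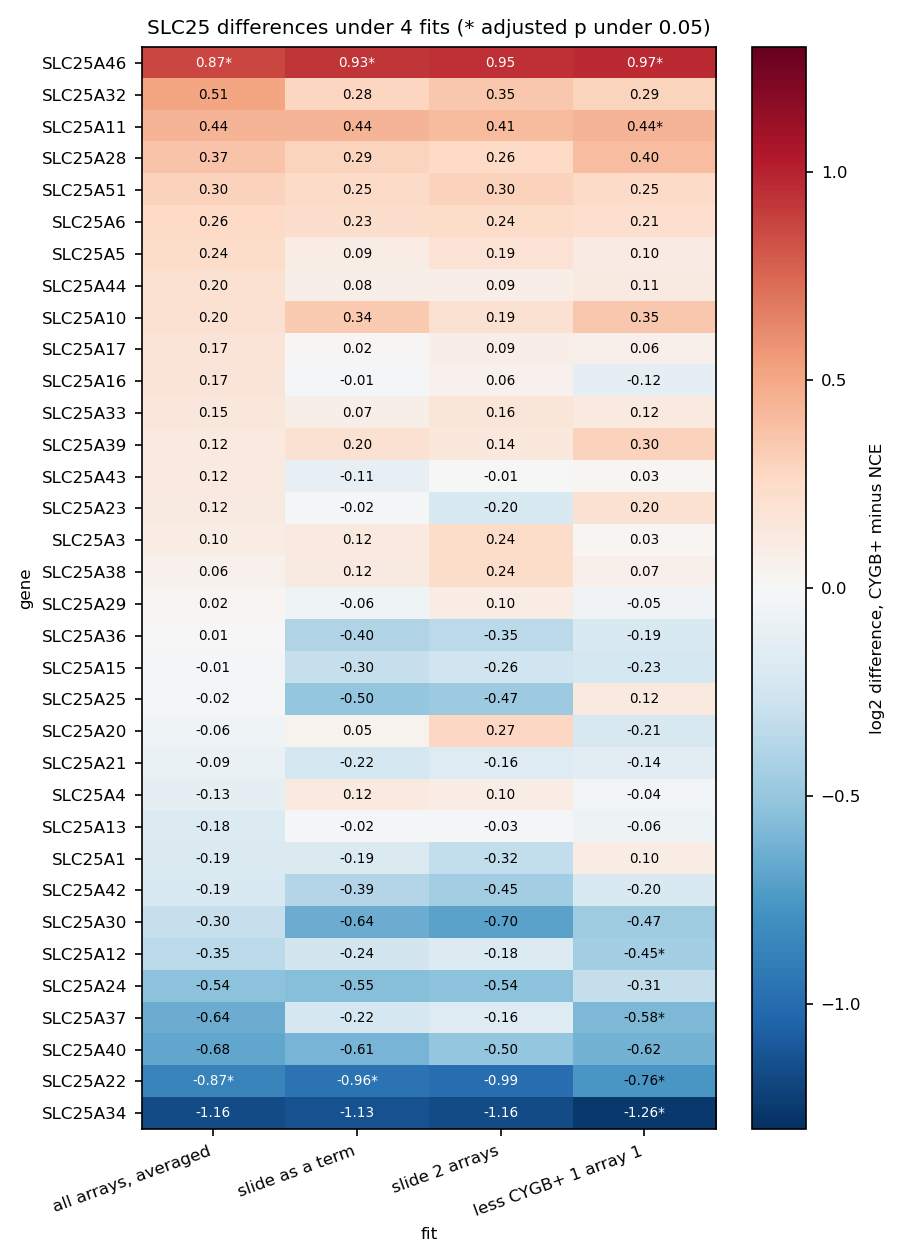
Log2 difference of CYGB+ minus NCE for 34 of the 35 SLC25 genes under 4 fits: all arrays averaged per replicate, the slide as a term over 15 arrays, the arrays of slide 2 alone, and all arrays less array 1 of CYGB+ replicate 1. Red is higher and blue lower in CYGB+, and a star marks adjusted p under 0.05. SLC25A34, starred in the last fit, had entered through the NCE arrays alone. SLC25A46 (0.87 to 0.97) and SLC25A22 (-0.99 to -0.76) keep their size in all 4, while SLC25A37 goes from -0.64 to -0.16 on slide 2.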

How the data were processed

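The deposited scanner files hold spot intensities per the file headers, from Agilent Feature Extraction 10.7.3.1 run as a 2-colour protocol on an array drawn on GRCh37. The software had subtracted background and dye-normalized the green signal. Flags of 0 or 1 in the deposited files mark other properties of each spot, such as being well above background. By the labels green (Cy3) held the sample in all 15 files, while the study's methods put the control on Cy5. The files did not settle this here, and green was used as the labels have it. Red entered no test, though the dye normalization of green had used it. The authors' deposited matrix holds natural log values of 15040 probes: across 15009 probes its deviations had a median slope of 0.685 on the scanner's log2 deviations (ln 2 is 0.693) and a median correlation of 0.963, and it ends at 4.605, a 100-fold ratio. Its direction is that of the signal. The reference it was centred on is unknown. Its array medians ran from -0.161 to 0.182.

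Of 42405 non-control probes, 26310 had a RefSeq accession and 25422 matched a gene symbol. Outlier spots were left out, log2 green signals were quantile-normalized, and spots of a probe and array repeats of a replicate were averaged. A probe entered if well above background on every array of a group (19790 probes, 12131 genes). limma 3.58.1 in R 4.3.3 compared 3 replicates with 3, two-sided, with Benjamini-Hochberg adjustment over all probes at 5%. The code was tested on simulated data.

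Every called SLC25 gene was named, with replicate values for those and for SLC25A3 to SLC25A6; replicate values of further genes were chosen after their differences were seen. The values of 1 SLC25 gene are not reported here, though it is in the counts and medians. The members and lists were chosen with earlier results of these data known.

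The replicate numbers come from the labels. As a check of pairing, deviations from the group means correlated across probes between same-numbered replicates at 0.239, 0.262 and 0.328, and between other pairs at -0.524 to 0.27. P-values measure the spread between these replicates, which the labels do not place in separate clones.

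Alternatives were 75th percentile scaling, normexp (offset 50, on gMedianSignal in place of gMeanSignal, which was not used here), no filter and a stricter filter, the mean over a gene's probes, a replicate block, the slide (as a term with replicates as a random block, and within slide 2), unaveraged arrays with the same random block, the methods' t-test on the same filtered probes and averaged replicates, the matrix, and leaving out each replicate.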

Additional observations from a re-analysis of the deposited data

Results flagged for a closer look

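The highest or lowest array's gap to its nearest neighbour, as a share of the group's range, was compared with Dixon's critical value in 16 groups of 6 or 9 arrays, and 3 groups were past it. Chance puts about 1 in 20 groups past it where values are independent, but here arrays repeat the same replicates and the 16 groups share 15 arrays.

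SLC25A46 on array 1 of CYGB+ replicate 1 read 9.17 against 9.68 for the next lowest CYGB+ array, a gap share of 0.892. It was still above all 9 NCE arrays, and without that array the difference was 0.97 (adjusted p 0.0022). The same array had the lowest median correlation with the other arrays, 0.901 against 0.955 to 0.978 for the rest, a gap share of 0.804 within CYGB+. SLC25A6 on array 2 of NCE replicate 3 read 15.36 against 15.18 for the next highest, a gap share of 0.547. The causes were not tested.

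In the red channel, which no comparison used, 33 of the 35 SLC25 genes were well above background on all 15 arrays. The labels name Cy3 alone, while the study's methods put the control on Cy5, so what red held is not settled. Per array, green and red signals correlated across probes at 0.897 to 0.989.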

How the results depend on the processing

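In the main comparison 2302 probes passed, with 1 SLC25 gene higher and 1 lower. SLC25A46 passed in 18 and SLC25A22 in 17 of 21 alternatives, and each kept its sign in all 21. Over the 35 genes, 21 kept their sign throughout and no called value reversed.

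With the replicate number as a block (pairing), 3491 probes passed, with 3 SLC25 genes lower, SLC25A34 (adjusted p 0.028) and SLC25A37 (0.0376) added. SLC25A34 entered through NCE alone, and had no value where all 15 arrays had to be above background. The block changed no other SLC25 call. With the slide as a term 717 passed, 40.6% of them upward against 53.7% in the main comparison. On slide 2 alone 95 passed, with 0 SLC25 genes higher and 0 lower, in a fit with fewer arrays that assumes the lone NCE replicate varies like the CYGB+ replicates.

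Unaveraged arrays gave 4659 with 3 SLC25 genes higher and 4 lower, where array repeats add arrays, with replicates as a random block. The methods' t-test on the same 19790 probes gave 825. The matrix gave 1444 from 15031 probes, with 2 SLC25 genes higher. No filter on dim probes gave 1196 over 42405 probes, with 2 SLC25 genes higher, SLC25A27 added, whose 2 probes were each above background on at most 4 arrays. Normexp gave 4 higher, among 2374 probes, and 75th percentile scaling 2 lower, among 1993. Leaving out a replicate gave 651 to 2128 probes, 0 to 1 SLC25 genes higher and 0 to 2 lower, in fits with fewer samples. The lowest, 651, came without NCE replicate 2, followed by 832 without NCE replicate 3, 1145 without NCE replicate 1 and 1447 without CYGB+ replicate 3.

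Further alternatives were chosen after seeing the data. Green signal before dye normalization gave 2 SLC25 genes higher and 1 lower, among 2240 probes. Without array 1 of CYGB+ replicate 1, 3989 probes passed, with 2 SLC25 genes higher and 4 lower, and adding the replicate block gave 6086, 2 and 6. Without the 4 arrays of lowest correlation it was 4999, 2 and 5. Where fewer samples or probes do not account for a change, the cause was not tested. Signal over background limits the dim genes: 48.4% to 57.3% of probes were well above background per array.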

Other observations

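The NCE array on slide 2 correlated with the NCE arrays of slide 1 at 0.966 to 0.983 (median 0.979) across probes. With the CYGB+ arrays beside it on slide 2, leaving out array 1 of CYGB+ replicate 1, it correlated at 0.965 to 0.971 (median 0.969). Genes are not independent replicates, and these values are a description of the arrays.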
